A study of Mus musculus with 6 samples.

Results

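Expression of 69 genes for chromatin remodellers, histone demethylases, deacetylases and acetyltransferases was examined in BCR-ABL1-driven murine leukaemia cells of the pre-B stage. BCR-ABL1 is the fusion kinase of the Philadelphia chromosome. The genes were chosen by name from the annotation of the array: every symbol beginning with Smarc, Chd1 to Chd9, Arid1 to Arid5, Kdm1 to Kdm8, Hdac and Kat2 to Kat8, with Crebbp and Ep300 added and Kdm6a left out. They were 69 of the 19938 genes measured by a probe for a single gene, and the brightest such probe stood for each gene. The cells were of the FvB/N strain, carried floxed alleles (fl/fl) of Spry1 and Spry2, and were resistant to puromycin. Control cells had been transduced with PMIP-ERT2, which lacks the recombinase (3 arrays), and the others with PMIP-CRE-ERT2, which encodes a tamoxifen-activated Cre recombinase (Cre-ERT2, 3 arrays). Both groups received 0.5 µM 4OH-Tamoxifen for 2 days. The labels give neither the number of clones nor the number of separate cultures, and the p-values therefore reflect only how far these arrays spread, which may be technical. Cre-expressing cells without floxed alleles were not analysed here, so the effect of losing Spry1 and Spry2 and that of Cre itself cannot be told apart.

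DNA in the nucleus is wrapped around histones, and access to it is set by enzymes of several kinds. Remodellers of the SWI/SNF, ISWI and CHD families use ATP to slide or evict nucleosomes. Acetyltransferases add acetyl groups to histone lysines and mark active regulatory DNA, deacetylases remove them, and demethylases of the Kdm family erase methyl groups from lysines. In B cell precursors these enzymes work with lineage transcription factors during antigen receptor rearrangement and differentiation, and several of their genes are recurrently mutated in lymphoid leukaemia.

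None of the 69 genes passed the test, limma with Benjamini-Hochberg adjustment over all 19938 genes at an adjusted p under 0.05: 0 rose and 0 fell. Across all genes 1.92% passed. At an unadjusted p under 0.05 the chromatin genes numbered 13 with a positive and 7 with a negative difference (Cre-ERT2 minus control, in log2 units throughout). These were 18.8% and 10.1% of the set, beside 5.24% and 12.8% of all genes. Together the 20 genes were 29%, beside 18.1% of all genes and 24.9% of those above the 40th percentile of mean signal. At an adjusted p under 0.1 the set held 3 genes in each direction, 8.7% in all, beside 6.19% of all genes (2.01% higher and 4.18% lower). Of the 11963 genes above the 40th percentile of mean signal, where 65 of the 69 lay, 1131 passed 0.1. These were 366 higher and 765 lower. The smallest adjusted p was 0.0516, that of Arid5a. Differences were small, from -0.32 for Hdac9 to 0.31 for Arid5a, and 39 of 69 were under 0.1 in size. The standard error of a difference lay between 0.05 and 0.14. The 95% intervals of all 69 genes lay between -0.49 and 0.52, so in these arrays no interval reached beyond a 1.43-fold change.

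The sign of the differences was mixed. Of the 69 genes, 39 had a positive and 30 a negative difference, with a median of 0.0076, whereas 36.9% of all genes had a positive difference and their median was -0.033. The arrays of the groups did not overlap for 30 chromatin genes (43.5%; 24.8% of all genes), 19 with Cre-ERT2 higher (27.5%; 6.59% of all genes) and 11 with Cre-ERT2 lower (15.9%; 18.2% of all genes). Only 4 of the 69 lay below the 40th percentile of mean signal, and among the 11963 genes above it the groups did not overlap for 33.4% (8.67% higher, 24.8% lower). CHD remodellers held the highest class median, 0.17 over 9 genes, and the 4 ISWI and other SNF2 ATPases the lowest, -0.12. The medians of the other 5 classes lay between -0.014 and 0.031. The CHD median stayed positive, and that of the ISWI and other SNF2 ATPases negative, under both rescalings of the arrays and without any single array. The SWI/SNF median changed sign under both rescalings and without control 1 (0.0476), Cre-ERT2 1 or Cre-ERT2 2. The medians of the other ARID proteins, demethylases and acetyltransferases changed sign without control 3, and that of the acetyltransferases also without Cre-ERT2 1. Without control 3 the number of chromatin genes with a positive difference was 26 instead of 39, and after a repeated quantile normalization it was 45. These class values are a description and were not tested against each other.

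**Figure D1:**
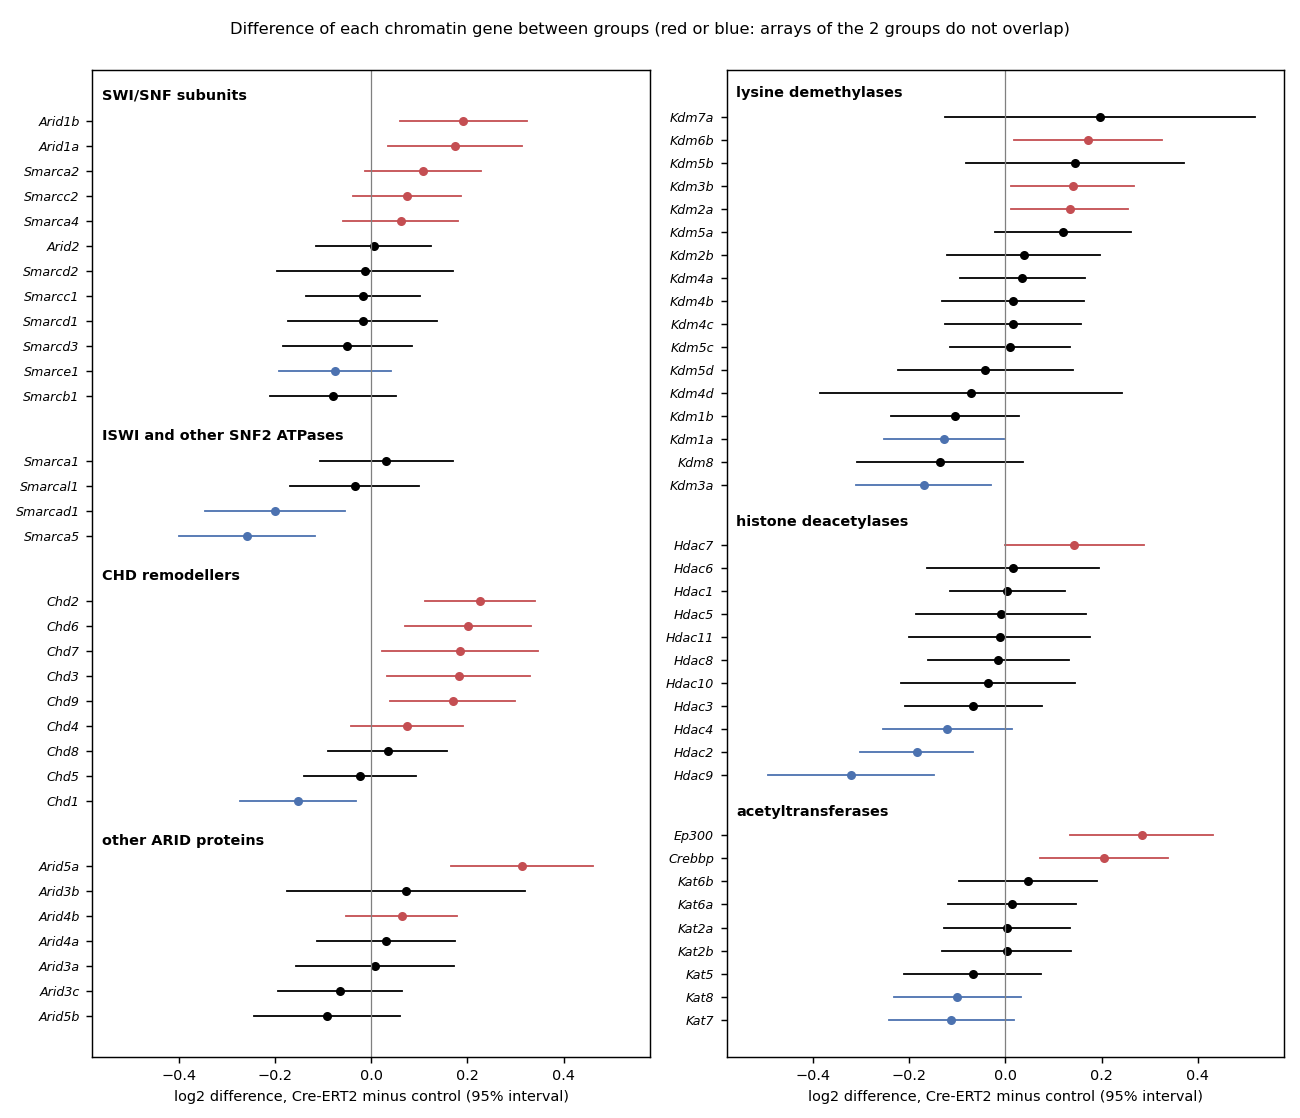
Log2 difference (x axis, Cre-ERT2 minus control) of each of the 69 genes, grouped by class and ordered by difference, with the 95% interval of the limma fit (n = 3 arrays in each group). Red marks the 19 genes whose Cre-ERT2 arrays all lie above the controls and blue the 11 whose Cre-ERT2 arrays all lie below. Of all genes tested, 6.59% lie wholly above and 18.2% wholly below. Red marks 6 of 9 CHD genes, and the differences run from -0.32 (Hdac9) to 0.31 (Arid5a).

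The labels were checked by the floxed genes. Spry2 and Spry1 fell by 1.06 and 0.84 (limma adjusted p = 0.00162 and 0.00462), with no overlap between the groups. Array medians lay between 7.73 and 7.81 and correlations between arrays between 0.992 and 0.997. Control 1 stood apart from the other controls, with the lowest array weight (0.322, against 0.662 to 2.36). All 9 measured markers of the B lineage, among them Cd79a, Pax5, Ebf1 and Igll1, lay above the median signal of all genes. Of these, 4 had a positive difference and 0 passed. Rag1 (-0.31 ± 0.097 SE, limma adjusted p = 0.138) and Il7r (-0.28 ± 0.12 SE, limma adjusted p = 0.245) had all Cre-ERT2 arrays below the controls. Ebf1 had all of them above (0.069 ± 0.05 SE, limma adjusted p = 0.531). Of 11 mast cell markers, 11 had a positive difference and 3 rose. Their mean level was 7.57 to 8.08 in the controls and 8.37 to 9.45 in Cre-ERT2 arrays. Defining markers of T cells (5 measured) and erythroid cells (2 measured) lay below the median in both groups. Of 8 markers of monocytes, macrophages and neutrophils, 5 had a positive difference and 0 passed. Their mean level was 6.81 to 6.88 in the controls and 6.87 to 7.02 in Cre-ERT2 arrays. Lyz2, the lysozyme gene of myeloid cells, read 8.56, 8.91 and 8.42 in the controls, against 9.05, 10.12 and 9.90 in Cre-ERT2 arrays (1.07 ± 0.25 SE, limma adjusted p = 0.0651). Itgam also had all Cre-ERT2 arrays above the controls (0.21 ± 0.068 SE, limma adjusted p = 0.15). Mpo (-0.18), S100a8 (-0.13) and S100a9 (-0.11) had negative differences, with overlapping groups. Of the 8, only Lyz2 lay above the median of all genes in mean signal. Itgam and the defining macrophage genes Csf1r and Adgre1 lay below it. The mean of 9 proliferation genes was 12.21 to 12.28 in the controls and 12.03 to 12.1 in Cre-ERT2 arrays, and 1 of them, Nuf2, fell. Only 1 of the 9, Mki67, had a positive difference (0.045 ± 0.049 SE, limma adjusted p = 0.694). All its Cre-ERT2 arrays lay above the controls. In such bulk samples fewer cells of a type and less RNA per cell cannot be told apart. The part of the mast cell, B lineage, Lyz2, Itgam and proliferation markers in the differences below was not tested.

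Among the SWI/SNF subunits the 2 genes with the lowest p encode the large DNA-binding ARID1 subunits, of which each canonical BAF complex holds one. Arid1b read 11.60, 11.53 and 11.47 in controls 1, 2 and 3, against 11.75, 11.68 and 11.75 in Cre-ERT2 1, 2 and 3. Every Cre-ERT2 array lay above every control, with a difference of 0.19 ± 0.058 (SE, limma adjusted p = 0.123). Its paralogue Arid1a read 11.70, 11.55 and 11.56 in the controls, against 11.82, 11.72 and 11.80 in Cre-ERT2 arrays, again without overlap (0.17 ± 0.061 SE, limma adjusted p = 0.174). Arid2, which replaces them in the PBAF form of the complex, differed by 0.0056 ± 0.053 (SE). The alternative ATPases Smarca2 (0.11) and Smarca4 (0.061) and the scaffold gene Smarcc2 (0.075) also had non-overlapping arrays with Cre-ERT2 higher, at adjusted p = 0.329, 0.605 and 0.482 by limma. The core subunit genes Smarcb1 (-0.079), Smarcc1 (-0.017; 0.03 after a repeated quantile normalization) and Smarcd1 (-0.018) overlapped between the groups, and Smarce1 (-0.075) had all Cre-ERT2 arrays below the controls. Of the 12 subunits 6 had a positive and 6 a negative difference, with a median of -0.0036 that became 0.048 after a repeated quantile normalization.

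Subunits of the same complexes that carry other names were taken as partner genes. Of 18 such genes, 3 (16.7%) had a positive and 15 a negative difference (median -0.062), beside 36.9% of all genes with a positive difference. The number with a positive difference was 6 after a repeated quantile normalization and 7 without control 1. By limma 0 passed, and 2 (11.1%, beside 18.1% of all genes) had an unadjusted p under 0.05. Brd7, a bromodomain subunit of PBAF, had the lowest p (-0.18 ± 0.055 SE, limma adjusted p = 0.128), followed by values such as -0.13 for the actin-related subunit gene Actl6a and -0.079 for Pbrm1.

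The ISWI ATPase gene Smarca5, whose product spaces nucleosomes, had the largest negative difference among remodellers. It read 12.26, 12.24 and 12.34 in the controls, against 11.95, 12.11 and 12.00 in Cre-ERT2 arrays. The highest Cre-ERT2 array lay 0.122 under the lowest control, and the difference was -0.26 ± 0.062 (SE, limma adjusted p = 0.0717), or 83.6% of the control signal. Of the 6 probes that name a member together with other genes, 3 name Smarca5 with its pseudogene. Those gave -0.16, -0.19 and -0.18, and transcripts of gene and pseudogene cannot be told apart there. Smarcad1, a related ATPase that acts at DNA ends and behind replication forks, read 10.92, 10.91 and 10.91 in the controls, against 10.62, 10.83 and 10.69 in Cre-ERT2 arrays (-0.20 ± 0.064 SE, limma adjusted p = 0.141). Smarcal1, which remodels stalled forks, differed by -0.035 ± 0.059 (SE; 0.0031 after a repeated quantile normalization), and Smarca1, the other ISWI ATPase gene, was at 5.15 in control, among the dimmest genes on the array (percentile 5.58).

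Of 14 partners of the ISWI, INO80 and SRCAP complexes, 6 had a positive and 8 a negative difference (median -0.015; 10 positive and a median of 0.028 after a repeated quantile normalization) and 0 passed. Ruvbl1, an ATPase of the AAA family shared by the INO80 and SRCAP complexes, had the lowest p. It read 11.11, 11.03 and 11.06 in the controls, against 10.72, 10.89 and 10.73 in Cre-ERT2 arrays (-0.29 ± 0.063 SE, limma adjusted p = 0.0581). The large ATPase gene Srcap (0.26 ± 0.067 SE, limma adjusted p = 0.0848) and the ISWI partner gene Baz2a (0.26 ± 0.068 SE, limma adjusted p = 0.0886) had the lowest p among positive differences.

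Of the 9 CHD genes 7 (77.8%) had a positive difference, beside 36.9% of all genes. In 6 (66.7%) all Cre-ERT2 arrays lay above the controls, beside 6.59% of all genes. Among genes above the 40th percentile of mean signal that share was 8.67%. Chd2, which works at active promoters and sites of DNA damage, read 9.74, 9.75 and 9.70 in the controls, against 9.98, 9.95 and 9.93 in Cre-ERT2 arrays. The gap of 0.185 between the groups was the largest of all 69 genes, and the difference was 0.23 ± 0.05 (SE, limma adjusted p = 0.0588). Chd6 read 10.07, 10.02 and 9.93 in the controls, against 10.18, 10.25 and 10.20 in Cre-ERT2 arrays (0.20 ± 0.058 SE, limma adjusted p = 0.106). Chd9 (0.17), the NuRD ATPase gene Chd3 (0.18) and Chd7 (0.18) had adjusted p = 0.158, 0.180 and 0.215 by limma. Chd7, the gene mutated in CHARGE syndrome, had 30 single-gene probes, of which 27 gave a positive and 3 a negative difference, from -0.06 to 0.29. Chd4, the other NuRD ATPase gene, differed by 0.074 ± 0.051 (SE). Chd1, which binds methylated H3K4 and was the one CHD gene with every Cre-ERT2 array below the controls, read 11.29, 11.28 and 11.33 in the controls, against 11.14, 11.20 and 11.10 in Cre-ERT2 arrays (-0.15 ± 0.053 SE, limma adjusted p = 0.172). The class median of 0.17 became 0.122 without control 3 and 0.125 without Cre-ERT2 1.

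Arid5a, whose product binds AT-rich DNA and also stabilises inflammatory transcripts such as that of interleukin 6, came closest to the threshold of all 69 genes. It read 10.77, 10.59 and 10.57 in the controls, against 10.96, 10.92 and 10.99 in Cre-ERT2 arrays. All Cre-ERT2 arrays lay above the highest control, control 1, by at least 0.157. The difference was 0.31 ± 0.065 (SE, 95% interval 0.17 to 0.46, limma adjusted p = 0.0516), a 1.24-fold difference. It passed under 7 of 16 alternatives at the same threshold, with adjusted p between 0.00532 and 0.210 over all of them, and without control 1 it was called higher. The other 6 ARID genes outside SWI/SNF had adjusted p of 0.531 or more by limma. The susceptibility gene of childhood leukaemia Arid5b differed by -0.092 ± 0.067 (SE), Arid4b by 0.063 ± 0.051 and Arid3a, a B cell factor that binds the immunoglobulin heavy chain locus, by 0.0076 ± 0.073.

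**Figure D2:**
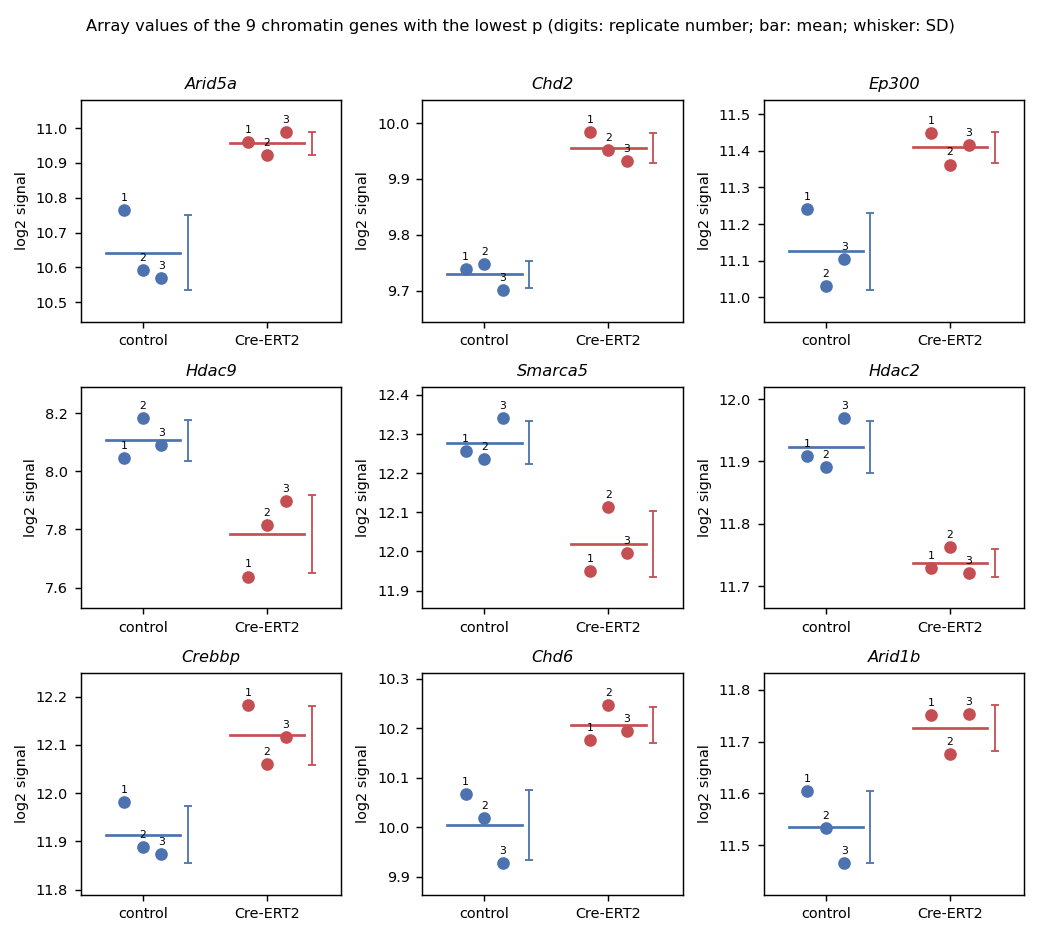
Log2 signal (y axis) on each array for the 9 chromatin genes with the lowest p, with replicate numbers beside the points, the group mean as a bar and the SD as a whisker (n = 3 in each group; y axes differ and do not start at 0). All 9 genes separate the groups, with Arid5a, Chd2, Ep300, Crebbp, Chd6 and Arid1b higher and Hdac9, Smarca5 and Hdac2 lower in Cre-ERT2 arrays. The 9 were picked by p on these same arrays, so their separation is not separate support. The groups did not overlap for 24.8% of all genes and 33.4% of those above the 40th percentile of mean signal.

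Among the 9 acetyltransferases the lowest p belonged to Ep300 and Crebbp, which encode large coactivators that acetylate histone H3 at enhancers. Ep300 read 11.24, 11.03 and 11.11 in the controls, against 11.45, 11.36 and 11.42 in Cre-ERT2 arrays. The lowest Cre-ERT2 array lay 0.122 above the highest control (0.28 ± 0.066 SE, 95% interval 0.13 to 0.43, limma adjusted p = 0.0651). Crebbp read 11.98, 11.89 and 11.87 in the controls, against 12.18, 12.06 and 12.12 in Cre-ERT2 arrays, also without overlap (0.21 ± 0.059 SE, limma adjusted p = 0.106). Ep300 passed under 7 of 16 alternatives, among them the fit without control 1, and Crebbp under 3. The MYST family genes Kat7 (-0.11 ± 0.057 SE) and Kat8 (-0.1 ± 0.058 SE) had all Cre-ERT2 arrays just below the controls, by 0.0038 and 0.0191, at adjusted p = 0.348 and 0.417 by limma. Kat5, the catalytic subunit of the TIP60 complex, differed by -0.068 ± 0.063. Kat6a, Kat6b and the SAGA enzymes Kat2a and Kat2b differed by 0.013, 0.046, 0.0025 and 0.0023, each within its standard error of 0.058 to 0.063.

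Of 30 partners of acetyltransferases 7 had a positive and 23 a negative difference (median -0.07; 10 positive after a repeated quantile normalization), 0 rose and 1 fell, against 0.797% and 1.12% of all genes. The gene that fell was Hat1, which encodes the enzyme that acetylates newly made histone H4. It read 12.46, 12.34 and 12.50 in the controls, against 12.04, 12.15 and 12.07 in Cre-ERT2 arrays, without overlap (-0.35 ± 0.062 SE, limma adjusted p = 0.0369). Leaving out any single array ended the call, with adjusted p from 0.0546 (without Cre-ERT2 2) to 0.174 (without Cre-ERT2 3). Trrap, the scaffold shared by the SAGA and TIP60 complexes, was at 0.33 ± 0.078 (SE, limma adjusted p = 0.0698). The dosage compensation gene Msl2 was at -0.22 ± 0.052 (limma adjusted p = 0.0674) and the ATAC subunit gene Tada2a at -0.24 ± 0.061 (limma adjusted p = 0.0854).

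Of the 11 histone deacetylases 8 had a negative difference, with a median of -0.014, and 6 after a repeated quantile normalization. Hdac9, a class IIa deacetylase that represses MEF2 target genes, had the largest difference in size of all 69 genes. It read 8.04, 8.18 and 8.09 in the controls, against 7.64, 7.82 and 7.90 in Cre-ERT2 arrays. Cre-ERT2 1 was the lowest array, and the groups were 0.146 apart (-0.32 ± 0.076 SE, 95% interval -0.49 to -0.15, limma adjusted p = 0.0681), or 80% of the control signal. Hdac2, a class I deacetylase of the NuRD, SIN3 and CoREST complexes, read 11.91, 11.89 and 11.97 in the controls, against 11.73, 11.76 and 11.72 in Cre-ERT2 arrays (-0.18 ± 0.052 SE, limma adjusted p = 0.0999). Its close paralogue Hdac1 read 12.24, 12.15 and 12.15 in the controls, against 12.19, 12.17 and 12.20 in Cre-ERT2 arrays, with overlapping groups (0.0041 ± 0.053 SE). Hdac3, the enzyme of the NCoR complex, differed by -0.067 ± 0.063. The class IIa gene Hdac7, a repressor of myeloid genes in B cell precursors, had Cre-ERT2 arrays 0.0073 or more above the controls (0.14 ± 0.064 SE, limma adjusted p = 0.281). For Hdac4 the brightest probe gave -0.12 and the other 0.17, so its direction depends on the probe. Hdac5, Hdac6, Hdac8, Hdac10 and Hdac11 differed by at most 0.036 in size.

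Of 24 measured partners of deacetylases 6 had a positive and 18 a negative difference (median -0.048; 9 positive after a repeated quantile normalization), and 0 passed. The histone chaperone gene Rbbp7 (-0.20 ± 0.05 SE, limma adjusted p = 0.0732) and the SIN3 subunit gene Sap30 (-0.24 ± 0.063, limma adjusted p = 0.0875) had the lowest p, and the NuRD subunit gene Mta3 was at 0.19 ± 0.051 (limma adjusted p = 0.0957). None of the 7 sirtuins, the NAD-dependent deacetylases, passed. Sirt1 had the lowest p of these (-0.13 ± 0.056 SE, limma adjusted p = 0.270).

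Of the 17 demethylases 11 had a positive and 6 a negative difference. By limma 5 (29.4%) had an unadjusted p under 0.05, beside 18.1% of all genes and 24.9% of those above the 40th percentile of mean signal. Their smallest adjusted p, 0.187, was the highest such minimum of the 7 classes. Kdm3a, which removes methyl groups from H3K9 and is induced in hypoxia, read 10.77, 10.73 and 10.77 in the controls, against 10.51, 10.69 and 10.55 in Cre-ERT2 arrays (-0.17 ± 0.062 SE, limma adjusted p = 0.187). Its paralogue Kdm3b read 11.25, 11.16 and 11.11 in the controls, against 11.30, 11.30 and 11.34 in Cre-ERT2 arrays (0.14 ± 0.056 SE, limma adjusted p = 0.232). In both the groups did not overlap, in opposite directions. The H3K27 demethylase gene Kdm6b, a signal-induced gene in myeloid cells, was at 0.17 ± 0.068 (SE, limma adjusted p = 0.226), and the H3K36 demethylase gene Kdm2a at 0.13 ± 0.054 (limma adjusted p = 0.235). Kdm1a, the flavin-dependent H3K4 demethylase of the CoREST complex, was at -0.13 ± 0.055 (limma adjusted p = 0.261) and its relative Kdm1b at -0.1 ± 0.059 (limma adjusted p = 0.403). The H3K4 demethylase genes Kdm5a (0.12), Kdm5b (0.14) and Kdm5c (0.0098) overlapped between the groups, as did all of Kdm4a to Kdm4d. Kdm7a, whose values ran from 9.73 to 10.20 in control and from 9.98 to 10.44 in Cre-ERT2 arrays, had the widest interval of the 69 genes (-0.13 to 0.52). Among 9 JmjC proteins that carry other names 0 passed, and their median was 0.065.

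Related genes were compared on each array as log2 ratios, which do not depend on the scaling of single arrays by a constant. Of 13 pairs, 5 had ratios that did not overlap between the groups. The share for ratios of other gene pairs was not counted. For single genes it was 24.8% of all and 33.4% of those above the 40th percentile of mean signal. An exact two-sided permutation test gave p = 0.1 for each of the 5, the smallest that 3 arrays against 3 allow, and p = 0.26 after adjustment over the 13 pairs. No pair could reach 0.05 in this design, so the sizes and intervals are given. The intervals are not adjusted over the 13 pairs, and the 5 pairs were picked by non-overlap on these same arrays. An interval that leaves out 0 is therefore not a test passed. The ratio of Kdm3a to Kdm3b differed by -0.31 ± 0.071 (SE, n = 3 each, 95% interval -0.51 to -0.11), and relative to the control mean it was -0.37, -0.19 and -0.37 in Cre-ERT2 1, 2 and 3. The ratio of Hdac1 to Hdac2 differed by 0.19 ± 0.048 (95% interval 0.056 to 0.32). The ratio of Smarcc1 to Smarcc2 differed by -0.092 ± 0.016 (95% interval -0.136 to -0.048). Those of Chd4 to Chd3 (-0.11) and Crebbp to Ep300 (-0.078) had intervals that include 0. Arid1a and Arid1b kept a ratio within 0.053 above and 0.088 below the control mean by the 95% interval (-0.018 ± 0.025 SE), and Kat2a to Kat2b differed by 0.00017 ± 0.049.

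**Figure D3:**
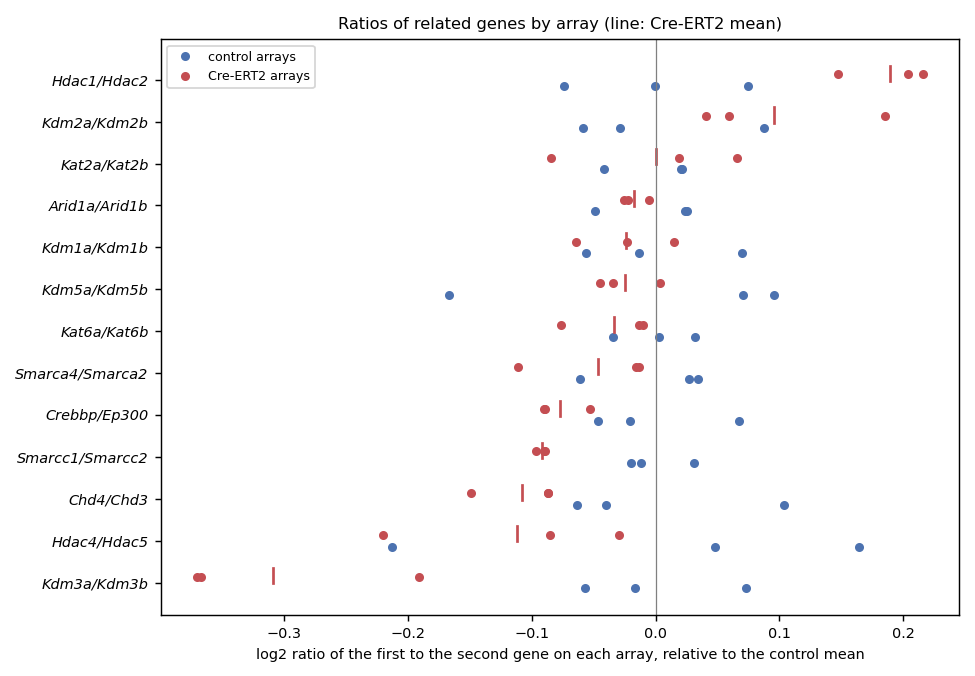
Log2 ratio of 2 related genes on each array (x axis, relative to the control mean) for 13 pairs, with control arrays in blue, Cre-ERT2 arrays in red and a line at the Cre-ERT2 mean (n = 3 each). The groups do not overlap for Kdm3a/Kdm3b, Chd4/Chd3, Smarcc1/Smarcc2, Crebbp/Ep300 and Hdac1/Hdac2. The share for ratios of other gene pairs was not counted.

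Promoter sequence was described for the 52 of 69 genes with an entry in a RefSeq table of windows from 250 bases before to 50 after the transcript start (GRCm38.p6, first listed window of a gene). Their median GC content was 60.8% and their median number of CG dinucleotides 21, against 52.7% and 7 for all 27025 windows. The letters CACGTG (on either strand, as for the others) stood in 2 of 52 windows (3.85%; 7.24% of all windows), TGANTCA in 5 (9.62%; 7.93%), CCGGAAGT in 3 (5.77%; 4%), and TGACGTCA and GCGTGGGCG in 0 (1.88% and 0.625% of all windows). No 2 of these motifs are contained in each other. A match is a description of letters in this window, not a binding site. The windows of Ep300, the acetyltransferase gene with the lowest p, and of the genes with the largest negative differences among remodellers (Smarca5) and deacetylases (Hdac9) are shown. That of Hdac9 differs from those of Ep300 and Smarca5 in CG content. The 52 windows held 0 to 65 CG dinucleotides. CG dinucleotides are in capitals, 30 in Ep300, 32 in Smarca5 and 0 in Hdac9. The second listed window of Hdac9, not printed, holds 3 and has 1 of the 5 motifs, TGANTCA. Ep300, Smarca5 and Hdac9 hold none of the 5 motifs in the windows printed here, read 5′ to 3′ along the gene.
Ep300, chr15:81585964-81586263, plus strand: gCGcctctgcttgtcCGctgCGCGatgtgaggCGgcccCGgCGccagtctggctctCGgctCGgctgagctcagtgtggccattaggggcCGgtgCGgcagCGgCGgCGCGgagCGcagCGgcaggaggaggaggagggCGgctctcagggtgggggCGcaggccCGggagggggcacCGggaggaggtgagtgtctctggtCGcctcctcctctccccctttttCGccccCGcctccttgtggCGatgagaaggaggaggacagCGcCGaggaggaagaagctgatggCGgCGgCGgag
Smarca5, chr8:80739410-80739709, minus strand: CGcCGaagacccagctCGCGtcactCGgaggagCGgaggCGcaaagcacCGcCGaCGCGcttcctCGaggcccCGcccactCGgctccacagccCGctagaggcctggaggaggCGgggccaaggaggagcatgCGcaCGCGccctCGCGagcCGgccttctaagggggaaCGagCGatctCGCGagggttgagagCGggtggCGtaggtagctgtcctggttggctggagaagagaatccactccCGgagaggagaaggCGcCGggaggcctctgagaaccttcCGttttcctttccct
Hdac9, chr12:34917046-34917345, minus strand: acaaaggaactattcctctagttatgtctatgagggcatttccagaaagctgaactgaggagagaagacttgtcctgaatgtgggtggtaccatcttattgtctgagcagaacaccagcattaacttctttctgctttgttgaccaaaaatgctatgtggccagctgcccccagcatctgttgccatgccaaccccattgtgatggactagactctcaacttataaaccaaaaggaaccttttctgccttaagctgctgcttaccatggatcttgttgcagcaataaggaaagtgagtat

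The number of chromatin genes past the threshold depended on how the same values were modelled. The count of 0 was also 0 with the mean of all probes, with every probe tested, without variance moderation, and without control 2, control 3, Cre-ERT2 1, Cre-ERT2 2 or Cre-ERT2 3. It was 2, Arid5a and Ep300, without control 1, where 1.26% of all genes passed. With dim genes left out 3 were called higher (Arid5a, Chd2, Ep300) and 3 lower (Hdac2, Hdac9, Smarca5), 9.23% of the 65 tested beside 9.65% of all genes. With an intensity trend in the variance the counts were 5 and 3 (11.6%, beside 5.95% of all genes), and with array weights 9 and 3 (17.4%, beside 9.25%). Scaling moved the direction of calls across all genes, from 41.6% higher as deposited to 52.5% after a repeated quantile normalization. There 5 chromatin genes were called higher and 0 lower (7.25%, beside 3.53% of all genes). In all, 12 of the 69 genes passed under at least 1 of 16 alternatives at the same threshold, 9 with a positive and 3 with a negative difference: Arid5a and Ep300 under 7, Chd2 under 5, Hdac9 under 4, Smarca5, Hdac2 and Crebbp under 3, Arid1b and Chd6 under 2, and Arid1a, Chd7 and Kdm3b under 1. All 12 passed with array weights (17.4%, beside 9.25% of all genes). The share of all genes that passed under at least 1 alternative was not counted. Those 12 kept their direction under all 16, and over all 69 genes 39 did. The 12 were picked by these same refits of the 6 arrays, so their kept direction is not separate support.

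**Figure D4:**
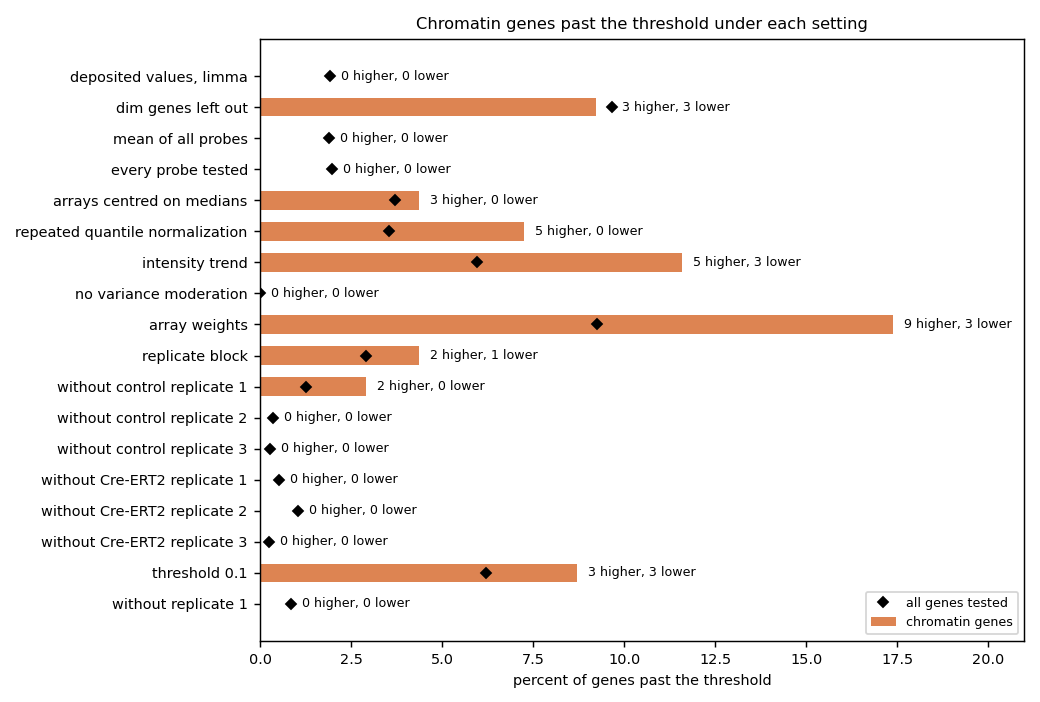
Percent of chromatin genes past the threshold (bars) and of all genes tested (diamonds) on the x axis under each setting, with the numbers of chromatin genes called higher and lower as text; the adjusted p threshold is 0.05 except where 0.1 is named. Bars reach 17.4% with array weights and are at 0 for the deposited values and for 5 of 6 fits that leave out 1 array.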

How the data were processed

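The labels' protocols describe biotin-labelled total RNA on 1-colour Affymetrix arrays, 1 array for each of 6 samples. The authors deposited log2 expression values for 35556 probes, from 2.47 to 14.81. Per the submitters' processing notes, the software included RMA and Partek 6.5, with neither role nor order. The genome build and probe filters were not given in the sources used here. Groups and replicate numbers come from the sample labels.

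By the platform's annotation 21789 probes name 1 gene, 1621 several and 12146 are unnamed here. A gene was represented by its brightest single-gene probe (mean of all 6 arrays), which left 19938 genes, with no filter and no further scaling. The group comparison used limma 3.58.1 (lmFit, eBayes) under R 4.3.3, Benjamini-Hochberg adjusted over all genes, at 0.05. The procedure was tested on simulated data. Genes named are the 3 with the lowest p in each class, the paralogue pairs, partners past the threshold, Spry1, Spry2 and genes whose probes disagree. Any other member or partner named, and the windows printed, were picked with their values known. The members, classes, partner lists (102 of 104 genes measured), markers and tests were chosen with earlier results of these data known. The number of arrays limits the precision. The alternatives changed the filter, probe choice, scaling, variance model, weights, pairing, arrays and threshold.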

Additional observations from a re-analysis of the deposited data

How the results depend on the processing

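The counts of chromatin genes, and of partner genes, called higher and lower were 0 and 0, and 0 and 1, as deposited. They were 3 and 3, and 4 and 7, with dim genes left out; 3 and 0, and 3 and 2, with arrays centred on their medians; 5 and 0, and 5 and 1, after a repeated quantile normalization; 5 and 3, and 5 and 7, with an intensity trend; 9 and 3, and 8 and 6, with array weights; and 3 and 3, and 4 and 6, at a threshold of 0.1. Without variance moderation 0 partner genes were called lower. Of all genes tested, 1.92% passed as deposited, 9.65% with dim genes left out and 3.71% with centred arrays. The share was 3.53% after quantile normalization, 5.95% with an intensity trend, 9.25% with array weights and 6.19% at a threshold of 0.1. It was 0.246% to 1.26% without 1 array and 0.833% without both arrays numbered 1. Of the chromatin genes, 4.35% passed with centred arrays and 7.25% after quantile normalization. Leaving out 1 array, or both arrays numbered 1 (chosen after seeing the data, as was applying the alternatives to partner genes), gave 0 to 2 chromatin genes higher and 0 lower, and 0 to 2 partner genes higher and 0 lower.

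With all arrays kept, class medians moved by more than the spread between arrays in these cases: SWI/SNF to 0.0477 (quantile) and 0.0497 (weights), CHD to 0.215 (quantile), and ISWI and other SNF2 ATPases to -0.2 with the dim Smarca1 left out. They also moved by more than it for SWI/SNF without control 1 (0.0476) or Cre-ERT2 1 (0.037) and for CHD without control 3 (0.122) or Cre-ERT2 1 (0.125), and ran from -0.0239 to 0.0476 and from 0.122 to 0.181 without 1 array. Without both arrays numbered 1 they were 0.084 and 0.136. Under at least 1 of 16 alternatives 30 of the 69 genes changed sign. Among the genes with the lowest p in each class and the paralogue pairs, sign turned for Hdac4 (0.0244 with the mean of its probes, 0.169 by its probe with the lower p), Smarcal1 (0.00314) and Smarcc1 (0.0305) after quantile normalization, and Smarcc1 (0.00458) and Kat2b (-0.0143) with weights. Leaving out 1 array spanned 0 for Smarcc1 (-0.0381 to 0.0107), Smarcal1 (-0.0671 to 0.00408), Hdac1 (-0.0123 to 0.0345), Hdac5 (-0.0831 to 0.068), Kat2a (-0.0309 to 0.0403), Kat2b (-0.0412 to 0.0294), Kat6a (-0.0232 to 0.0468), Kat6b (-0.00564 to 0.0788) and Kdm2b (-0.0283 to 0.0911). The other genes of the text that changed sign were Smarcd1 (-0.0493 to 0.0814), Arid2 (-0.0187 to 0.0549), Arid3a (-0.0537 to 0.0775), Smarca1, Kdm4b, Kdm4c, Kdm4d, Kdm5c, Hdac3, Hdac6, Hdac8, Hdac10, Hdac11 and Kat5. Log ratios turned for Hdac4/Hdac5 (0.0333, mean of probes) and, after quantile normalization, Kat6a/Kat6b (0.0123), Kdm1a/Kdm1b (0.00773) and Kdm5a/Kdm5b (0.0254). They spanned 0 without 1 array for Kdm5a/Kdm5b (-0.108 to 0.0228), Kat2a/Kat2b (-0.0327 to 0.0423) and Kdm1a/Kdm1b (-0.0523 to 0.0104). The cause was not tested.

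Whether replicate numbers pair the samples was not settled, and the main fit was unpaired. Same-numbered deviations from the group means correlated at 0.268, 0.336 and 0.0282 for numbers 1, 2 and 3. Arrays numbered 1 and arrays numbered 2 correlated best with their own number in the other group, and arrays numbered 3 did not. With the replicate number as a block, 2 chromatin genes were called higher and 1 lower (4.35%, beside 2.91% of all genes). Of the partner genes, 1 was called higher and 1 lower.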
